A study of Mus musculus with 4 samples.

Results

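The Sox trio and 7 proteins of the cartilage matrix were followed in cells sorted from newborn mouse hindlimbs. The trio is Sox5, Sox6 and Sox9, and the matrix genes are Acan, Hapln1, Matn1, Matn3, Matn4, Comp and Cnmd. They were taken by name and make up 10 of the 55487 gene rows in the count table, and all 10 had enough counts to be tested. The study deleted Ecsit, which encodes an adaptor of innate immune signalling that also takes part in the assembly of mitochondrial complex I, from limb mesenchyme. Hindlimbs of C57BL/6J pups at postnatal day 1 carried the Prx1-cre driver, active in limb bud mesenchyme and its descendants, and the Rosa26 mT/mG reporter, which turns cells that have met Cre green. GFP+ cells negative for CD45, Tie2, Ter119 and DAPI were sorted, and their polyadenylated RNA was sequenced. The conditional knockout (cKO) libraries, by the study's description, also carry floxed Ecsit alleles, whereas the WT libraries carry Prx1-cre and the reporter alone. No treatment was given. Each label has 2 libraries, numbered 2 and 3, with 20152872 and 19271414 counts in those labelled cKO, and 18266573 and 18489694 counts in those labelled WT. The sources do not say whether a library came from 1 pup or from a pool. A p-value therefore reflects only how much these libraries vary, with the number of animals behind them unknown.

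The labels disagree with each other and with the targeted gene. The titles give WT and cKO, but the genotype field assigns Prx1-cre to the libraries titled WT and the floxed allele without Cre to those titled cKO. Since the sort relied on GFP, which needs Cre, that field cannot be right in full. Ecsit itself stood at 33.6 and 30.2 CPM (reads of a gene relative to all reads of its library, with TMM scaling of library sizes) in the libraries labelled cKO 2 and cKO 3, against 12.6 and 18.8 CPM in those labelled WT 2 and WT 3. It was thus higher, not lower, in the libraries labelled cKO (log2 fold change 1.02, SE 0.25, edgeR adjusted p = 0.0245). Ecsit did not pass without cKO 2 (adjusted p = 0.161) or without cKO 3 (adjusted p = 0.0974). Groups follow the titles below, and every direction would turn round if the titles were exchanged. The sex-linked transcript Xist was at 188 CPM in cKO 3 and 1118 CPM in WT 2, but at 0.222 CPM in cKO 2 and 0.442 CPM in WT 3. Ddx3y was at 53.4 CPM in cKO 2 and 76.1 CPM in WT 3, but at 0 CPM in cKO 3 and 0.149 CPM in WT 2. Each label thus holds 1 library with much Xist and 1 with much Ddx3y. The 2 libraries of a label are therefore not repeats of the same RNA, and they differ in the sex of the pups.

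Cartilage of the growing limb is laid down by chondrocytes, whose identity rests on SOX9, a transcription factor that binds DNA through a high mobility group domain. SOX5 and SOX6 are close relatives of each other that lack a transactivation domain and act together with SOX9 on enhancers of cartilage genes. Aggrecan, the product of Acan, is the large proteoglycan that holds water in the tissue, and link protein, the product of Hapln1, fastens it to hyaluronan. Matrilins and cartilage oligomeric matrix protein (Comp) are oligomeric adaptors between collagen fibrils and proteoglycans, and chondromodulin (Cnmd) is a cartilage glycoprotein that inhibits the growth of vessels.

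Of the 10 genes, 9 were lower in the libraries labelled cKO than in those labelled WT (edgeR's quasi-likelihood test, Benjamini-Hochberg adjusted over 16157 genes), 0 were higher and Matn4 did not pass. Over all genes tested, 14.3% were called lower and 14.1% higher. No member was higher at an unadjusted p under 0.05, and DESeq2 likewise called 9 lower and 0 higher. The median log2 fold change was -1.48 over the 10 members and -0.02 over all genes tested. In 10 of 10 members both libraries labelled cKO lay below both labelled WT, a separation that 36.2% of all tested genes show. These are bulk measurements, so fewer chondrocytes among the sorted cells and less of these RNAs per cell cannot be told apart. The paper states that cartilage develops normally in mice with this deletion, and describes cartilage elements in their fibrous fracture calluses. Those statements are about tissue, whereas the values here are RNA levels in libraries grouped by title. The reason for the difference was not tested.

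**Figure D1:**
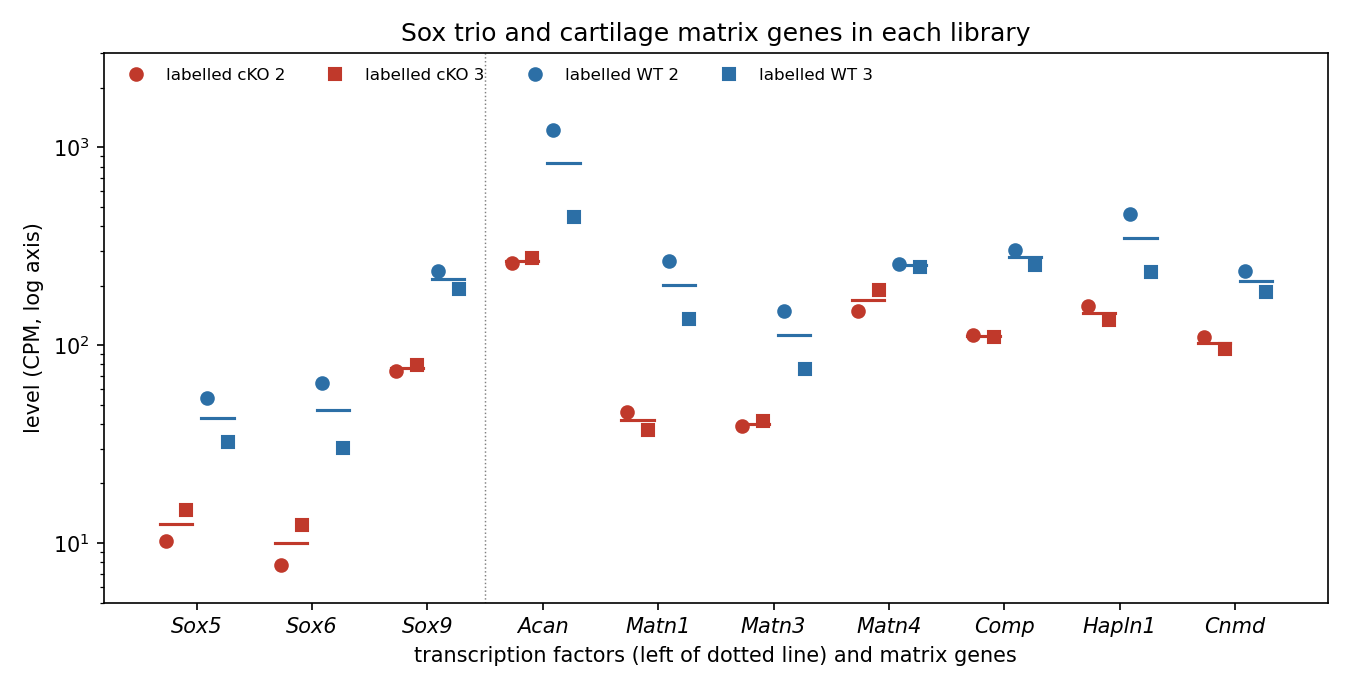
Level of each member in the 4 libraries (TMM-scaled CPM, log axis), libraries labelled cKO left of those labelled WT, with 1 point per library and the mean of each label. For every gene both cKO points lie below both WT points, and the WT points are far apart for Acan (1226 and 443 CPM).

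Sox9, the gene without which limb mesenchyme forms no cartilage, had 74.3 and 79.3 CPM in cKO 2 and cKO 3, against 237 and 193 CPM in WT 2 and WT 3. The 2 libraries of each label were close to each other, and the lowest WT library was 2.43 times the highest cKO library. Sox9 fell by 1.49 on the log2 scale (SE 0.207, edgeR adjusted p = 0.0127), with means of 76.8 ± 3.55 CPM in cKO and 215 ± 31.2 CPM in WT (SD, n = 2 each). It spans 5537 bases at chr11:112782224-112787760 on the plus strand (GRCm38), with 3 exons and 4135 exonic bases.

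Sox5, a partner of Sox9 in chondrocytes, had 10.2 and 14.6 CPM in cKO 2 and cKO 3, against 53.9 and 32.3 CPM in WT 2 and WT 3. It was lower by more than the spread within either label (log2 fold change -1.79, SE 0.307, edgeR adjusted p = 0.0142). Sox6, the other partner, had 7.78 and 12.3 CPM in cKO 2 and cKO 3, against 64.3 and 30.2 CPM in WT 2 and WT 3, and its log2 fold change was -2.24 (SE 0.388, edgeR adjusted p = 0.0143). WT 2 held 1.67 times the Sox5 and 2.13 times the Sox6 of WT 3, and without WT 2 the log2 fold change of Sox5 was -1.37 and that of Sox6 was -1.59, both still called. Counts behind these levels are modest, 184 and 261 reads for Sox5 and 140 and 219 reads for Sox6 in the cKO libraries, against 1082 and 657 reads and 1291 and 615 reads in the WT libraries.

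Both partners are far longer genes than Sox9. Sox5 spans 953553 bases on the minus strand at chr6:143828425-144781977 and Sox6 spans 567925 bases on the minus strand at chr7:115470872-116038796, and their longest transcripts have 15 and 16 exons. Sox5 overlaps 7 other annotated rows and Sox6 overlaps 2, but the most abundant of these holds 1.15% of the counts of Sox5 and 1.83% of those of Sox6.

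Sox5 reads per Sox9 read were 0.138 and 0.184 in cKO 2 and cKO 3, against 0.227 and 0.167 in WT 2 and WT 3, so the labels overlapped. Sox6 reads per Sox9 read were 0.105 and 0.155 in cKO 2 and cKO 3, against 0.271 and 0.157 in WT 2 and WT 3, so both cKO libraries were below both WT libraries, with cKO 3 and WT 3 nearly alike. Per kilobase of exon, the ratio of Sox5 to Sox6 was 1.36 and 1.23 in the cKO libraries, against 0.865 and 1.10 in the WT libraries, so both cKO libraries were above both WT libraries. With the longest transcript in place of all exons, a length chosen after seeing the data, it was 1.57 and 1.43 in the cKO libraries, against 1.00 and 1.28 in the WT libraries, so which of the pair is the more abundant in WT 2 depends on the length used.

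Promoter windows (250 bases before to 50 after an annotated start, RefSeq on GRCm38.p6) were matched for 8 of the 10 members, 14 windows in all, and none was matched for Sox9 or Comp. The core of the element that SOX proteins bind, ATTGTT read on either strand, is present in 10.7% of the 32851 windows of all genes. It occurs in 1 of the 14 member windows, that of 1 of the 6 Sox6 starts, where it stands on both strands 5 bases apart. Of all windows, 0.554% hold it on both strands at any distance. The stretch is shown because paired SOX sites of this kind are where SOX dimers are known to bind, and it lies on the minus strand at chr7:115824910-115824960, 250 to 200 bases before that start. Capitals mark the 2 matches.
Sox6: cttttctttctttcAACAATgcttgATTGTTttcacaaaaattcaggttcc
The 100 bases before the starts of Matn1, the member with the largest fold change, and of Acan, the member with the highest CPM in WT, are shown beside it as windows without the core. They lie on the plus strand at chr4:130944285-130944384 and chr7:79053126-79053225. The RefSeq start used here for Acan lies upstream of the start of its GENCODE gene, chr7:79053483, which is used for gene positions below.
Matn1: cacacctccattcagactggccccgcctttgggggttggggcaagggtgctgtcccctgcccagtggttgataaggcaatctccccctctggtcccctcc
Acan: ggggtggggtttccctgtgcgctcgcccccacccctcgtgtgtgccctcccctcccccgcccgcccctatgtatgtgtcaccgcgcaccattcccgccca
The windows also differ in base composition: 74% of the bases are G or C at Acan and 61.3% at Matn1, against a median of 52.7% over all windows. TATAAA, the core of the TATA box, read on either strand, was found in 2 member windows, both of Sox6, and in 13.6% of all windows. A match is a description of the sequence and not evidence of binding, and distant enhancers are outside these windows.

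Acan, the aggrecan gene and the most abundant member by CPM, had 259 and 275 CPM in cKO 2 and cKO 3, against 1226 and 443 CPM in WT 2 and WT 3. The cKO libraries were nearly alike, whereas WT 2 held 2.77 times the Acan of WT 3. The log2 fold change was -1.65 (SE 0.430, edgeR adjusted p = 0.0289) and was -0.73 without WT 2, still called, so its size rests on that library. Acan lies on the plus strand at chr7:79053483-79115099 with 17 exons in its longest transcript.

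Hapln1, which encodes the link protein that stabilises aggrecan on hyaluronan, had 159 and 134 CPM in cKO 2 and cKO 3, against 458 and 236 CPM in WT 2 and WT 3. It fell by 1.25 on the log2 scale (SE 0.320, edgeR adjusted p = 0.0274), and by less without WT 2, where the log2 fold change was -0.69. Acan reads per Hapln1 read were 1.63 and 2.05 in the cKO libraries, against 2.68 and 1.88 in the WT libraries, so the ratio of the proteoglycan to its link protein overlapped between labels. Hapln1 lies on the plus strand at chr13:89539796-89611652.

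Matn1, or cartilage matrix protein, had 45.9 and 37.4 CPM in cKO 2 and cKO 3, against 265 and 136 CPM in WT 2 and WT 3. The lowest WT library held 2.96 times the highest cKO library, the widest gap of the 10 members. Its log2 fold change of -2.27 was also the largest of the 10 in this fit (SE 0.325, edgeR adjusted p = 0.0127), with means of 41.7 ± 6.04 CPM in cKO and 201 ± 91.2 CPM in WT (SD, n = 2 each). Matn1 lies on the plus strand at chr4:130944385-130955475.

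Matn3, a matrilin that can form mixed oligomers with matrilin 1, had 39.0 and 41.3 CPM in cKO 2 and cKO 3, against 149 and 75.5 CPM in WT 2 and WT 3. It fell by 1.48 on the log2 scale (SE 0.311, edgeR adjusted p = 0.0182), and without WT 2 its log2 fold change was -0.91, still called. Matn3 lies on the plus strand at chr12:8947929-8972028.

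Matn4, a matrilin also made outside cartilage, had 149 and 191 CPM in cKO 2 and cKO 3, against 258 and 249 CPM in WT 2 and WT 3. Here the WT libraries were nearly alike and the cKO libraries differed, and the lowest WT library was 1.31 times the highest cKO library. The log2 fold change of -0.58 did not pass (SE 0.215, unadjusted p = 0.0277, edgeR adjusted p = 0.0764). It passed when genes needed 10 counts in every library (edgeR log2 fold change -0.64, adjusted p = 0.04998). It did not pass without a filter on low counts (edgeR, -0.54, adjusted p = 0.159) or with a replicate block (edgeR, -0.59, adjusted p = 0.128). With 1 library left out, it passed without WT 2 (-0.55) and without WT 3 (-0.60), but not without cKO 2 (-0.41) or cKO 3 (-0.78). Matn4 lies on the minus strand at chr2:164389393-164405160 and overlaps Rbpjl on the opposite strand, whose reads were at most 2.47% of its own. Whether reads were assigned by strand is not stated.

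The matrilins can also be read against each other within a library. Of the counts of these 3 matrilins, Matn4 made up 63.7% and 70.8% in cKO 2 and cKO 3, against 38.4% and 54.1% in WT 2 and WT 3, and Matn1 made up 19.6% and 13.9% in the cKO libraries, against 39.4% and 29.5% in the WT libraries. Matn2, a matrilin made in many tissues that is no member, was at 255 and 236 CPM in cKO 2 and cKO 3, against 174 and 195 CPM in WT 2 and WT 3. It did not pass (log2 fold change 0.41, edgeR adjusted p = 0.154), but was called higher with a correction for exon length (0.62, adjusted p = 0.0366). With Matn2 counted, a choice made after seeing the data, Matn4 made up 30.5% and 37.7% of the 4 matrilins in the cKO libraries, against 30.5% and 38.0% in the WT libraries, so its shares were nearly the same in both labels. Matn1 made up 9.38% and 7.39% in the cKO libraries, against 31.3% and 20.7% in the WT libraries, and Matn2 52.2% and 46.7%, against 20.6% and 29.8%. The shares are given as values and were not tested.

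Comp, a pentameric adaptor of cartilage and tendon, had 113 and 109 CPM in cKO 2 and cKO 3, against 304 and 255 CPM in WT 2 and WT 3. It had a small spread in both labels and fell by 1.33 on the log2 scale (SE 0.208, edgeR adjusted p = 0.0135). Comp lies on the plus strand at chr8:70373558-70382066, with 19 exons.

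Cnmd, the vessel inhibitor, had 110 and 95.6 CPM in cKO 2 and cKO 3, against 237 and 185 CPM in WT 2 and WT 3. Its log2 fold change was -1.04 (SE 0.217, edgeR adjusted p = 0.0180), the smallest of the 9 called members in this fit, though not with the length correction, where it was -1.37 and that of Sox5 was -0.97, or without WT 2, where it was -0.85 and that of Hapln1 was -0.69. Cnmd lies on the minus strand at chr14:79637690-79662170.

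**Figure D2:**
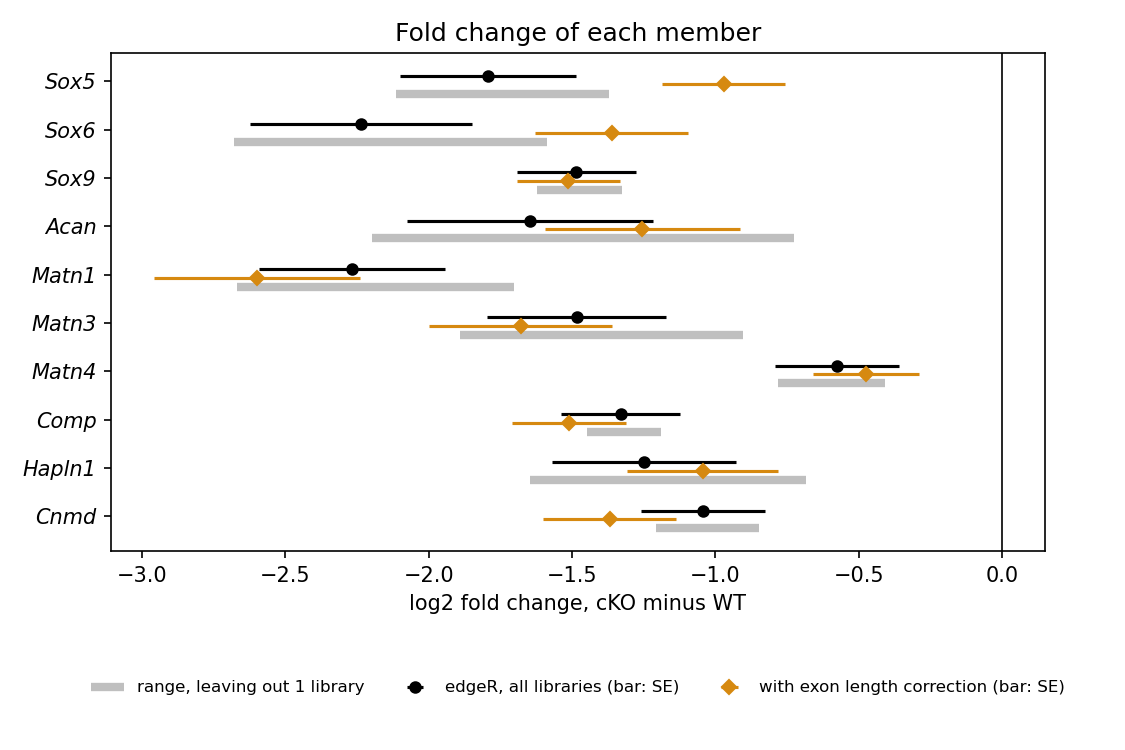
Log2 fold change (libraries labelled cKO minus WT) of each member in the edgeR fit and in the fit corrected for exon length, with bars of 1 SE, and in grey the range when 1 library is left out. All 10 members lie below 0 in both fits and over the whole range, from -2.27 for Matn1 to -0.58 for Matn4 in the first.

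As a group, the 10 members took 0.0863% and 0.0916% of all counts in cKO 2 and cKO 3, against 0.358% and 0.202% in WT 2 and WT 3. The 7 matrix genes had 9.48 and 8.31 reads per read of the Sox trio in the cKO libraries, against 8.16 and 6.19 in the WT libraries. Both cKO libraries thus had more matrix reads per read of the trio than either WT library, with cKO 3 and WT 2 close to each other. Against Sox9 alone, Matn1 had 0.618 and 0.471 reads per Sox9 read in the cKO libraries, against 1.12 and 0.705 in the WT libraries. Matn4 lay the other way, at 2.01 and 2.41 in the cKO libraries, against 1.09 and 1.29 in the WT libraries. Cnmd, at 1.48 and 1.20 in cKO and 1.00 and 0.962 in WT, and Comp, at 1.52 and 1.38 in cKO and 1.28 and 1.32 in WT, were also above WT in both libraries. Sox6, as given above, was below WT in both. Ratios of Acan, Matn3, Hapln1 and Sox5 to Sox9 overlapped between labels.

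**Figure D3:**
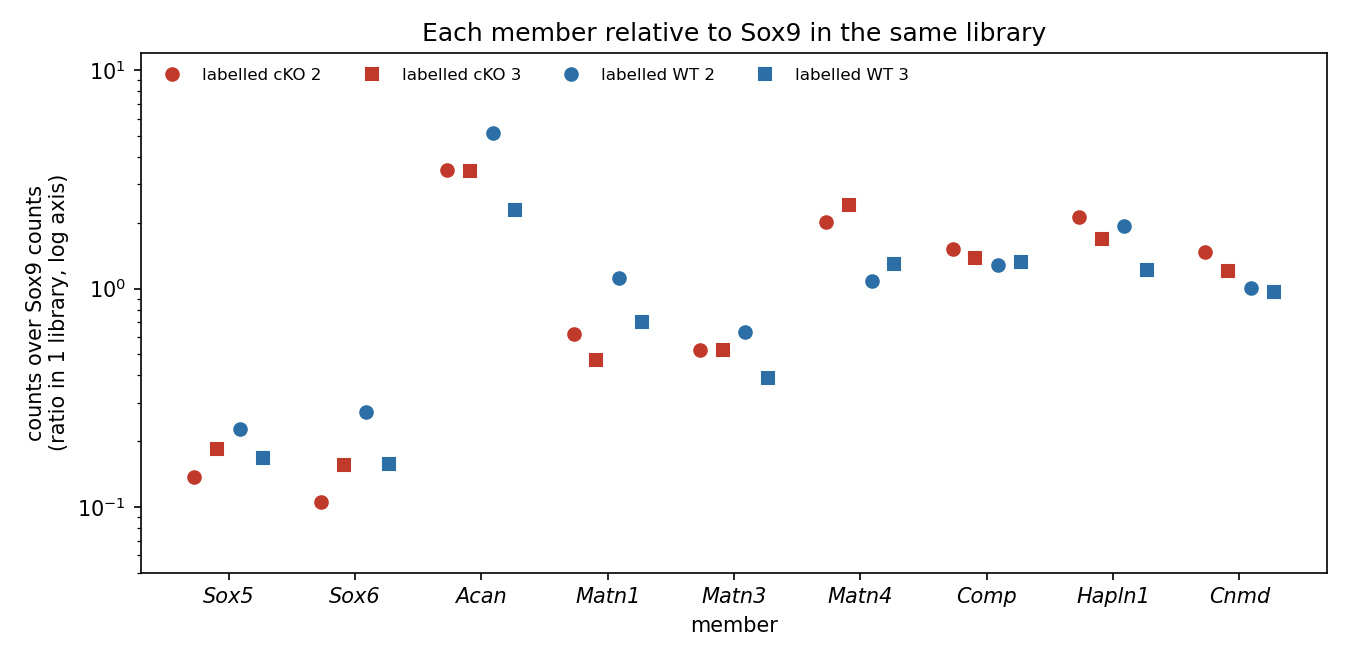
Reads of each member per Sox9 read in the 4 libraries (log axis), libraries labelled cKO left of those labelled WT, 1 point per library. Matn1 is lower and Matn4 higher in both cKO libraries than in both WT libraries, while the Acan points overlap (3.49 and 3.46 in cKO, 5.18 and 2.30 in WT).

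Members also differed within the WT label. WT 2 was above WT 3 in 10 of 10 members, from 1.03-fold for Matn4 to 2.77-fold for Acan. The median log2 difference, WT 3 minus WT 2, was -0.85 over the members and 0.04 over all genes, whose median absolute difference was 0.352. Between the libraries labelled cKO the members' median was 0.08 (cKO 3 minus cKO 2, range -0.30 to 0.66), with cKO 3 above cKO 2 in 6 of 10. The WT pair and the cKO pair each differ in Xist and Ddx3y, and the part of sex or of dissection in the spread of either pair was not tested.

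Leaving out 1 library kept the direction of 10 of 10 members but not every call. Without cKO 2, 3 members were called lower (Sox5, Sox6 and Matn1), against 2.98% of all genes. Without cKO 3, 6 were called lower (Sox5, Sox6, Sox9, Acan, Matn1 and Matn3), against 4.35% of all genes. Without WT 2 and without WT 3, 10 were called lower, against 15.0% and 25.0% of all genes. These fits have 3 libraries, and the lone library of a label is assumed to vary like the pair of the other.

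Levels per kilobase of exon rank the members within a library. In the cKO libraries Cnmd came first, at 59.5 and 51.9 CPM per kilobase, followed by Comp at 38.2 and 36.9, Acan at 34.7 and 36.8 and Matn4 at 28.8 and 36.9. Acan and Matn4 overlapped. Hapln1 at 26.9 and 22.7, Matn1 at 23.0 and 18.7 and Sox9 at 18.0 and 19.2 came next, each overlapping its neighbour, and Matn3 stood at 13.0 and 13.7. Sox5, at 0.712 and 1.02, and Sox6, at 0.525 and 0.828, were the lowest and overlapped. In the WT libraries Acan, at 164 and 59.3 CPM per kilobase, Matn1 at 132 and 68.0, Cnmd at 129 and 101 and Comp at 103 and 86.0 overlapped at the top, and Sox6, at 4.33 and 2.04, and Sox5, at 3.75 and 2.25, were again lowest. Exon length here is the union over transcripts, which is large for Sox5 (14376 bases) and Sox6 (14832 bases).

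Fold changes depended on gene length across the whole table. Over 10 groups of protein-coding genes by exon length, the median log2 fold change was 0.73 in the shortest group and -0.76 in the longest, and the difference WT 3 minus WT 2 likewise went down with length, with medians of 0.56 and -0.48. All 10 members lay below the median of genes of their own length, with log2 differences from that median of -2.71 for Matn1 and -0.50 for Matn4. A fit corrected for exon length called 9 members lower and 0 higher, against 12.3% of all genes lower and 17.0% higher, and again Matn4 did not pass (log2 fold change -0.47, adjusted p = 0.0822). The correction brought the log2 fold change of Sox5 to -0.97 (adjusted p = 0.0128) and that of Sox6 to -1.36 (adjusted p = 0.00889), while Sox9 was at -1.51 (adjusted p = 0.00362) and Matn1 at -2.60 (adjusted p = 0.00416). The part of RNA quality in this trend was not tested.

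**Figure D4:**
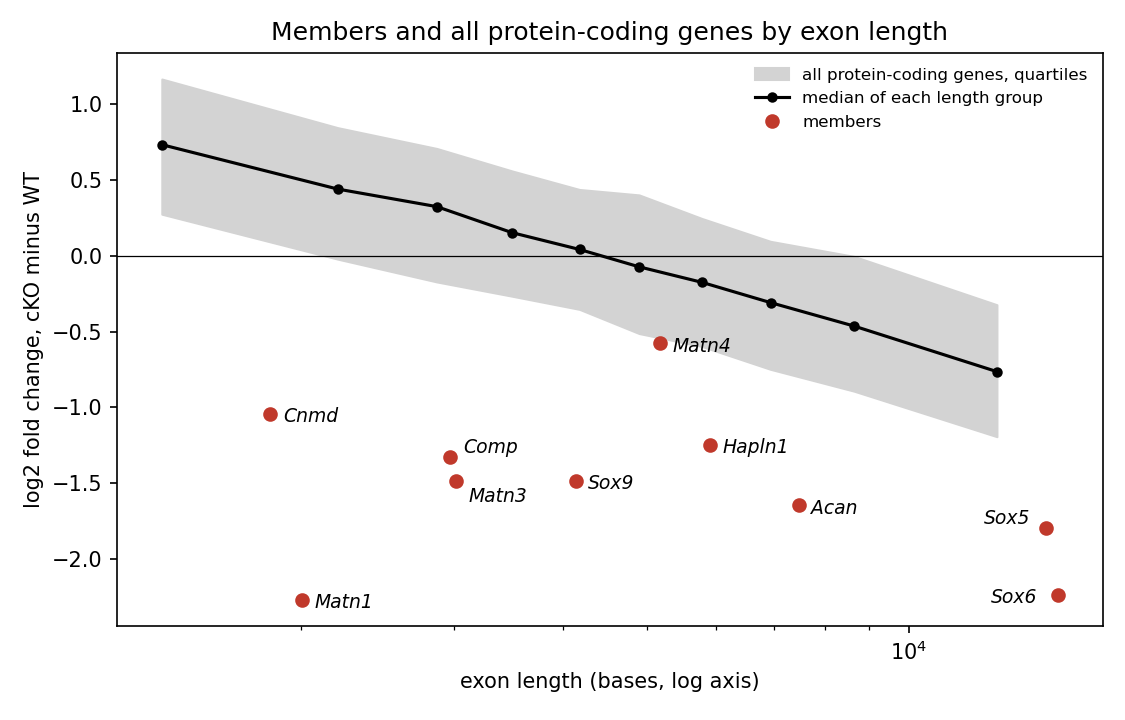
Log2 fold change (libraries labelled cKO minus WT) against exon length (bases, log axis) for the 10 members, with the median and quartiles of protein-coding genes in 10 length groups plotted at the median length of each group. The members lie below the median line throughout, and the line itself runs through 0.73 in the shortest and -0.76 in the longest group.

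Genes that work with the members were read from 4 lists, whose counts in the fit of all libraries stand against 14.3% of all genes called lower and 14.1% called higher. Lower calls with 1 library left out or with the length correction stand against the shares given above for those fits. Of 8 cartilage collagens, 8 were lower and 0 higher (median log2 fold change -1.62), also by DESeq2, and 0 were higher at an unadjusted p under 0.05. Col2a1, the main collagen of cartilage, had 3490 and 3475 CPM in cKO 2 and cKO 3, against 11314 and 5626 CPM in WT 2 and WT 3, and fell by 1.28 on the log2 scale (edgeR adjusted p = 0.0383). With the length correction Col2a1 did not pass (-0.76, adjusted p = 0.0550) and 7 of the 8 did. Without cKO 2 the test called 5 lower, and without cKO 3 it called 4. Col9a2, a chain of collagen IX on the fibril surface, averaged 148 CPM in cKO and 484 CPM in WT, and Col9a3 averaged 214 CPM in cKO and 630 CPM in WT (edgeR adjusted p = 0.0127 for both). Col11a1, a chain of the fibril core, averaged 404 CPM in cKO and 1422 CPM in WT (edgeR adjusted p = 0.0173), and its log2 fold change was -1.82, against -1.05 with the length correction.

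Of 12 other cartilage matrix genes, 5 were lower, 1 was higher and 6 did not pass (median log2 fold change -0.52), with 2 lower and 0 higher without cKO 2 and likewise without cKO 3. Epyc, a small leucine-rich proteoglycan of growth cartilage, averaged 8.09 CPM in cKO and 40.3 CPM in WT (log2 fold change -2.32, edgeR adjusted p = 0.0142). Prg4, the joint lubricant lubricin, averaged 9.38 CPM in cKO and 24.6 CPM in WT (log2 fold change -1.39, edgeR adjusted p = 0.0137). Chad, which encodes chondroadherin, averaged 41.7 CPM in cKO and 85.8 CPM in WT, and Snorc, a chondrocyte membrane proteoglycan, averaged 13.8 CPM in cKO and 30.5 CPM in WT. Cilp, cartilage intermediate layer protein, was the gene that rose, at 108 CPM in cKO and 60.2 CPM in WT (log2 fold change 0.84, edgeR adjusted p = 0.0278). Cytl1 had a log2 fold change of -0.04 (edgeR adjusted p = 0.876).

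Of 17 chondrocyte regulators, 11 were lower, 0 were higher and 6 did not pass (median log2 fold change -1.20), and 0 were higher at an unadjusted p under 0.05 or by DESeq2. Without cKO 2, 4 were called lower. Ihh, the hedgehog ligand of prehypertrophic chondrocytes, averaged 2.26 CPM in cKO and 13.8 CPM in WT (log2 fold change -2.60, edgeR adjusted p = 0.0143). Runx2, needed for chondrocyte hypertrophy and for osteoblasts, averaged 13.0 CPM in cKO and 43.6 CPM in WT (log2 fold change -1.75, edgeR adjusted p = 0.0127). The paper, by contrast, describes both the expression and the activity of RUNX2 in cKO progenitors as largely intact. The measures may be unlike, since its methods list a RUNX2 antibody for immunoblots. The values here are RNA levels in libraries grouped by title, a grouping that is in doubt. The reason for the difference was not tested. Arid5b, a cofactor of SOX9, averaged 39.9 CPM in cKO and 107 CPM in WT (log2 fold change -1.43, edgeR adjusted p = 0.0151, -0.86 with the length correction). Zbtb20, a repressor active in hypertrophic chondrocytes, had a log2 fold change of -1.58 (edgeR adjusted p = 0.0127) that did not pass with the length correction (-0.37, adjusted p = 0.385), a fit in which 9 of the 17 were called lower. Pth1r, the receptor of parathyroid hormone-related protein, had a log2 fold change of 0.28 (edgeR adjusted p = 0.426) and Sox4 one of -0.17 (edgeR adjusted p = 0.597).

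Of 23 tested genes for making and sulfating chondroitin sulfate, the sugar chain that aggrecan carries, 7 were lower, 3 were higher and 13 did not pass (median log2 fold change -0.23). Calls in this list changed when 1 library was left out, as did those over all genes, with ranges given below. The 3 of 23 called higher are a share near that of all genes. Slc26a2, the sulfate transporter, averaged 10.3 CPM in cKO and 51.7 CPM in WT (log2 fold change -2.33, edgeR adjusted p = 0.0138, -1.58 with the length correction). Papss2, which makes the sulfate donor, averaged 37.7 CPM in cKO and 121 CPM in WT (log2 fold change -1.68, edgeR adjusted p = 0.0136), whereas its paralogue Papss1 had a log2 fold change of 0.16 (edgeR adjusted p = 0.546). Slc35d1, which carries nucleotide sugars into the endoplasmic reticulum, averaged 9.72 CPM in cKO and 29.4 CPM in WT (log2 fold change -1.60, edgeR adjusted p = 0.0135). B3gat3, an enzyme of the linker to the core protein, rose, at 109 CPM in cKO and 45.8 CPM in WT (log2 fold change 1.25, edgeR adjusted p = 0.0177). Chst12, a sulfotransferase, also rose, at 84.8 CPM in cKO and 51.3 CPM in WT (log2 fold change 0.72, edgeR adjusted p = 0.0301).

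Markers of other cells moved with the labels in part. Counts of called markers stand against 14.3% of all genes called lower and 14.1% called higher by edgeR. Of 7 skeletal progenitor markers, 0 were called by edgeR in either direction, while Twist2 and Pdgfra were lower at an unadjusted p under 0.05 and DESeq2 called 1 lower, Twist2. Twist2 had 56.7 and 43.3 CPM in cKO 2 and cKO 3, against 57.3 and 153 CPM in WT 2 and WT 3. WT 2 and cKO 2 were thus nearly alike in Twist2. The summed level of the 7 markers was 29190 to 32064 CPM in cKO and 30956 to 32863 CPM in WT, of which Col1a1 made up 95.7% to 97.0%. Without Col1a1, a choice made after seeing the data, the other 6 summed to 972 and 951 CPM in cKO 2 and cKO 3, against 1195 and 1317 CPM in WT 2 and WT 3, so both cKO libraries were below both WT libraries. Osteoblast markers summed to 86.4 and 99.4 CPM in cKO and 89.2 and 93.0 CPM in WT, with 0 of 5 called by either tool and 0 at an unadjusted p under 0.05. Tendon markers were higher for 2 of 3, Scx and Tnmd, with sums of 314 to 322 CPM in cKO and 181 to 217 CPM in WT. Most of these sums was Tnmd, at 242 and 230 CPM in cKO 2 and cKO 3, against 134 and 155 CPM in WT 2 and WT 3. The remaining marker, Mkx, lay the other way and was not called (log2 fold change -0.35, edgeR adjusted p = 0.215). Skeletal muscle markers were higher for 4 of 5 tested, with sums of 144 to 147 CPM in cKO and 29.4 to 43.2 CPM in WT. Erythroid markers were higher for 5 of 5 tested, with sums of 1911 to 2015 CPM in cKO and 602 to 680 CPM in WT, in cells gated against Ter119. Of 4 Schwann cell markers, 3 were lower (2 by DESeq2), with sums of 23.4 to 29.7 CPM in cKO and 23.9 to 29.7 CPM in WT. Endothelial and keratinocyte markers had 0 called by either tool and 0 at an unadjusted p under 0.05, with sums of 47.6 to 48.0 CPM and 2.63 to 3.50 CPM in cKO and 49.1 to 57.3 CPM and 2.04 to 3.34 CPM in WT. Of the 4 haematopoietic markers tested, 1 was higher and 1 lower, at sums of 10.4 to 11.8 CPM in cKO and 12.5 to 15.1 CPM in WT, with Cd3e at 0 in all libraries. The part of these cells in the levels of the 10 members was not tested.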

How the data were processed

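Read counts per gene for 4 RNA-seq libraries (2 labelled cKO, 2 labelled WT; GFP+ hindlimb cells) were deposited by the authors as raw, unnormalized counts. The methods describe paired reads mapped to mm10 with STAR 2.7.5a, GENCODE vM25 and featureCounts 2.0.0, whereas the submitters' processing notes list the human build GRCh38.p12, HTSeq 0.11.3, DESeq2 1.28.1 and STAR 2.6.1b. Which of them made the table is not given in the sources used here, nor whether strand was used, which bears on overlapping genes. All 10 member identifiers matched GENCODE vM21 on GRCm38, as did 99.531% of rows.

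Groups follow the titles. Genes were kept by filterByExpr with a minimum count of 10 (16157 genes), scaled by TMM and tested with edgeR 4.0.16 (quasi-likelihood, no covariate, R 4.3.3). A call is a Benjamini-Hochberg adjusted p under 0.05 over all genes tested. The SE is the log2 fold change divided by the square root of F. DESeq2 1.42.0, its size factors, TMM without ribosomal protein and mitochondrial genes, stricter and no filters, an exon length correction, a replicate block and leaving out each library were tried as alternatives. The procedure was also run on simulated counts with the same dispersion for every gene and both labels. The real labels differ in spread, so that run does not show how the test behaves on these libraries.

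Named are the 10 members, Ecsit and, of each of the 4 lists, up to 6 called genes with the smallest p and the 2 with the highest mean CPM per kilobase, from which the text gives examples. Members and lists were chosen with earlier results of these data known. Promoter sequences come from RefSeq (GRCm38.p6). Protein sequences were not used here.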

Additional observations from a re-analysis of the deposited data

How the results depend on the processing

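Over 11 alternatives the fold changes of the 10 members gave 110 values, of which 95 kept their side of the threshold, 12 lost it, 3 gained it and 0 changed direction. Without the filter on low counts, calls over all genes were 869 higher and 665 lower, 6 members were called lower (Acan, adjusted p = 0.0771, Matn3, 0.0539, and Hapln1, 0.0760, were lost), Ecsit stood at 1.06 (adjusted p = 0.0557), other cartilage matrix genes had 0 higher and 2 lower, regulators 7 lower, and chondroitin sulfate genes 1 higher and 3 lower. The length correction called 2 other cartilage matrix genes higher. Leaving out each library in turn gave 506 to 4459 genes higher and 518 to 4254 lower, 3 to 10 members lower, 4 to 8 collagens lower, 0 to 2 other matrix genes higher and 2 to 6 lower, 0 to 1 regulators higher and 4 to 12 lower, 0 to 5 chondroitin sulfate genes higher and 3 to 13 lower, and 0.77 to 1.34 for Ecsit. The low ends of the members came without cKO 2, where Sox9 (adjusted p = 0.0645), Acan (0.0540), Matn3 (0.0542), Comp (0.0885), Hapln1 (0.0874) and Cnmd (0.142) were lost, and without cKO 3, where Comp (0.0900), Hapln1 (0.146) and Cnmd (0.216) were lost. These fits have 1 library fewer, and beyond that the cause was not tested. With the length of the longest transcript in place of all exons, mean levels in the libraries labelled cKO were 1.72 CPM per kilobase for Sox5, 1.16 for Sox6, 41.3 for Matn4, 46.1 for Comp and 71.6 for Cnmd.

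Libraries with the same replicate number did not deviate together (correlation -0.089 across 16157 genes). A replicate block gave 2615 genes higher and 2753 lower and 9 members lower. Sox6 in cKO 2 had the fewest reads of the member values, 140, and so the largest relative counting error, which leaves out the spread between libraries.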
